A study of Mus musculus with 20 samples.

Results

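The 9 genes described here encode the mouse enzymes that methylate lysine 9 of histone H3 (H3K9), the HP1 proteins that bind this mark, and 1 chromatin remodeller linked to it. They were taken by symbol from a fixed list (Setdb1, Suv39h1, Suv39h2, Ehmt1, Ehmt2, Cbx1, Cbx3, Cbx5 and Hells). They are 9 of 53560 genes and loci in the RNA table and 9 of 15428 that passed a filter of at least 1 FPKM (fragments per length of transcript and library size) in at least 2 libraries. All 9 members passed that filter, and all 9 also had a row among the 20462 genes of each of the histone mark tables.

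H3K9 methylation marks silent chromatin. SUV39H1 and SUV39H2 add the trimethyl mark mainly at pericentromeric repeats, SETDB1 adds it at retroelements and at targets of KRAB zinc finger proteins, and EHMT1 (GLP) with EHMT2 (G9a) form a complex that adds the mono- and dimethyl marks in euchromatin. HP1 proteins read methylated H3K9 through a chromodomain: CBX5 is HP1 alpha, CBX1 is HP1 beta and CBX3 is HP1 gamma. HELLS (LSH) is a SNF2-family remodeller needed for DNA methylation of repeats. CAF-1 deposits histones H3 and H4 behind the replication fork, and its large subunit p150 binds HP1.

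The study used TL1 mouse embryonic stem (ES) cells, wild type or labelled as knockouts of p150, which is encoded by Chaf1a and was targeted with CRISPR/Cas9. ES cells were kept in medium with 15% fetal bovine serum and LIF, and embryoid bodies (EBs), aggregates in which ES cells differentiate, were grown without LIF. There were 2 RNA-seq libraries for each of 4 groups (wild-type ES, knockout ES, wild-type EB and knockout EB), and ChIP-seq of H3K27me3 and of H3K4me3 had 1 library per group. The 4 input libraries were not analysed here. The labels do not say whether the knockout is 1 clone or whether the 2 libraries of a group came from separate cultures, so p-values measure only the spread between libraries, which may be technical.

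Chaf1a RNA did not check the labels, because gene-level FPKM can include transcripts that carry an edit. Whether such transcripts were present here was not tested. Its level was 49.5 and 43.0 FPKM in wild-type ES cells and 48.1 and 38.0 in knockout ES cells. In EBs it was 31.7 and 32.1 FPKM in the wild type and 31.6 and 35.0 in the knockout. The groups overlapped in both cell states, and neither difference passed the test (limma adjusted p = 0.829 in ES cells and 0.756 in EBs). Column totals ran from 641813 to 782026 FPKM over the 8 RNA libraries. The wild-type EB libraries had the lowest totals (683573 and 641813) and the knockout EB libraries the highest (782026 and 749046). Total and genotype thus go together in EBs. Pluripotency markers summed to between 5797 and 6144 FPKM in wild-type ES cells and cardiomyocyte markers to between 3129 and 4325 FPKM in wild-type EBs. The knockout EBs stood apart from the other EBs, with cardiomyocyte markers at 23.6 to 248 FPKM and pluripotency markers at 5369 to 7611 FPKM, against 304 to 537 FPKM in wild-type EBs.

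Promoter sequences of all 9 members were found in RefSeq (GRCm38.p6), as 13 windows of 250 bases that end just before a start site. The 5 given here belong to Hells and Suv39h1, the members with the largest RNA differences, and to the other 3 members whose windows held the same 10 letters as that of Suv39h1. Capitals mark, in Hells, letters typical of an E2F site, bound by cell cycle transcription factors, and in the other 4, letters typical of an NRF1 site. NRF1 is an activator of housekeeping genes. Each window is given 5′ to 3′ on the gene's strand.
Hells, chr19:38930740-38930989, plus strand: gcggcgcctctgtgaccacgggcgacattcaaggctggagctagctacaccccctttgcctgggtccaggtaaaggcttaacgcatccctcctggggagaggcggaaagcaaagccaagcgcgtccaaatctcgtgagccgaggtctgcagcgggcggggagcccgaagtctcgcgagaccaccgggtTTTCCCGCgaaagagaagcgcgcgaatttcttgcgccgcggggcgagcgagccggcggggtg
Suv39h1, chrX:8074761-8075010, minus strand: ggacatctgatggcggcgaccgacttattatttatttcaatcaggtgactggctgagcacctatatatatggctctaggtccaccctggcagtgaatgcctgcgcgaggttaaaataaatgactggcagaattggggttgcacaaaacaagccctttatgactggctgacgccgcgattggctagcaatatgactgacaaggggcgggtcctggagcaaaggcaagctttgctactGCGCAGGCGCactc
Cbx5, chr15:103239853-103240102, minus strand: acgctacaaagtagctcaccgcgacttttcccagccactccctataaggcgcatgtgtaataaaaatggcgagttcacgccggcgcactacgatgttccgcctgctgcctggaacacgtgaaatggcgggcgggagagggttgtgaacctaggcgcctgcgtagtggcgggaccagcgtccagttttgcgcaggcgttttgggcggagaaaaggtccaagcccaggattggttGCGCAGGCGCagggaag
Suv39h2, chr2:3474987-3475236, minus strand: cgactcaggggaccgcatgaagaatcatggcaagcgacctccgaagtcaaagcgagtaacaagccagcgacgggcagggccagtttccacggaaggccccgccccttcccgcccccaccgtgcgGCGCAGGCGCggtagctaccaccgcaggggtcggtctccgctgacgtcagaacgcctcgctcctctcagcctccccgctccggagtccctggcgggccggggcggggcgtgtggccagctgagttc
Ehmt1, chr2:24919610-24919859, minus strand: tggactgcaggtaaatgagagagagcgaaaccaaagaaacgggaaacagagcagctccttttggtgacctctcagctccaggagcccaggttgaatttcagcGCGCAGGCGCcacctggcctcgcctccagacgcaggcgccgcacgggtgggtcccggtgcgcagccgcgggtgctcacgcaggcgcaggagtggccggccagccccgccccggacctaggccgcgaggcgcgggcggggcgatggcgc

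The E2F letters searched were TTTCCCGC, TTTCGCGC, TTTGCCGC and TTTGGCGC, on both strands, in windows from the start sites RefSeq lists. The letters were chosen after the windows had been read. They stood in windows of 3 members: Hells (TTTCCCGC, 62 to 55 bases before the start), Cbx3 (TTTGGCGC, 168 to 161 bases before) and a second start of Suv39h1 (GCGGCAAA on the gene's strand, 64 to 57 bases before). That was 3 of the 13 member windows, and of all 32851 windows 1.86% held any of them. By the gene model of the RNA data, the Hells locus begins at chr19:38930915, upstream of the Hells letters. They thus lie before the RefSeq start but inside that locus. The NRF1 letters (GCGCA, then G or T, then GCGC, on either strand) were found in 4 members. They lay 14 to 5 bases before the start in Suv39h1, 17 to 8 in Cbx5, 126 to 117 in Suv39h2 and 148 to 139 in Ehmt1. That was 4 of the 13 member windows, against 2.44% of all windows. The next 3 sets of letters were also searched on either strand. GGGCGG, the GC box, or its reverse CCGCCC was present in all 9 members (12 of 13 windows) and in 32.7% of all windows. CCAAT or its reverse ATTGG was present in 3 members (3 of 13 windows, each as ATTGG on the gene's strand) and in 33.8% of all windows. TATAAA or its reverse was present in 0 members and 12.4% of all windows. Member windows held from 7 to 36 CpG dinucleotides, against a median of 6 over all windows. Letters chosen after the windows were read cannot test for an excess in those windows. The shares of all windows were also not matched for CpG content, so they are given only for scale. A match of letters is a description of the sequence and does not show binding.

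Position was shared as well by 2 of the HP1 genes, which start back to back with a gene of an RNA-binding hnRNP protein. The Cbx5 start lies 545 bases from that of Hnrnpa1 on the other strand, and the first Cbx3 start lies 722 bases from that of Hnrnpa2b1. No other member had an opposite-strand start within 1000 bases upstream in the RefSeq table.

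The largest levels among the members in wild-type ES cells were those of Cbx1 (191 ± 14.7 FPKM, SD, n = 2), Cbx3 (134 ± 13.3) and Hells (121 ± 2.98), and the smallest those of Suv39h2 (13.5 ± 2.45) and Suv39h1 (6.59 ± 0.948). Between them stood Ehmt2, Cbx5, Setdb1 and Ehmt1, in that order, with the libraries of Ehmt2 and Cbx5 overlapping. In wild-type EBs the order was Cbx3, Cbx1, Cbx5, Ehmt2, Suv39h1, Ehmt1, Hells, Setdb1 and Suv39h2, with no overlap between neighbours. As deposited, Suv39h1 was thus the lowest in wild-type ES cells and above Ehmt1, Hells, Setdb1 and Suv39h2 in wild-type EBs. With an overlapping gene model added, described below, the wild-type ES mean of Suv39h1 was 24.0 FPKM, above that of Suv39h2. Its lowest rank therefore depends on how that locus was counted. In knockout EBs Hells was again below Cbx1 and Cbx3 only, and the libraries of Setdb1 overlapped those of Ehmt1 and of Suv39h1. FPKM is a level per transcript length, so levels of different genes can be set side by side.

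**Figure D1:**
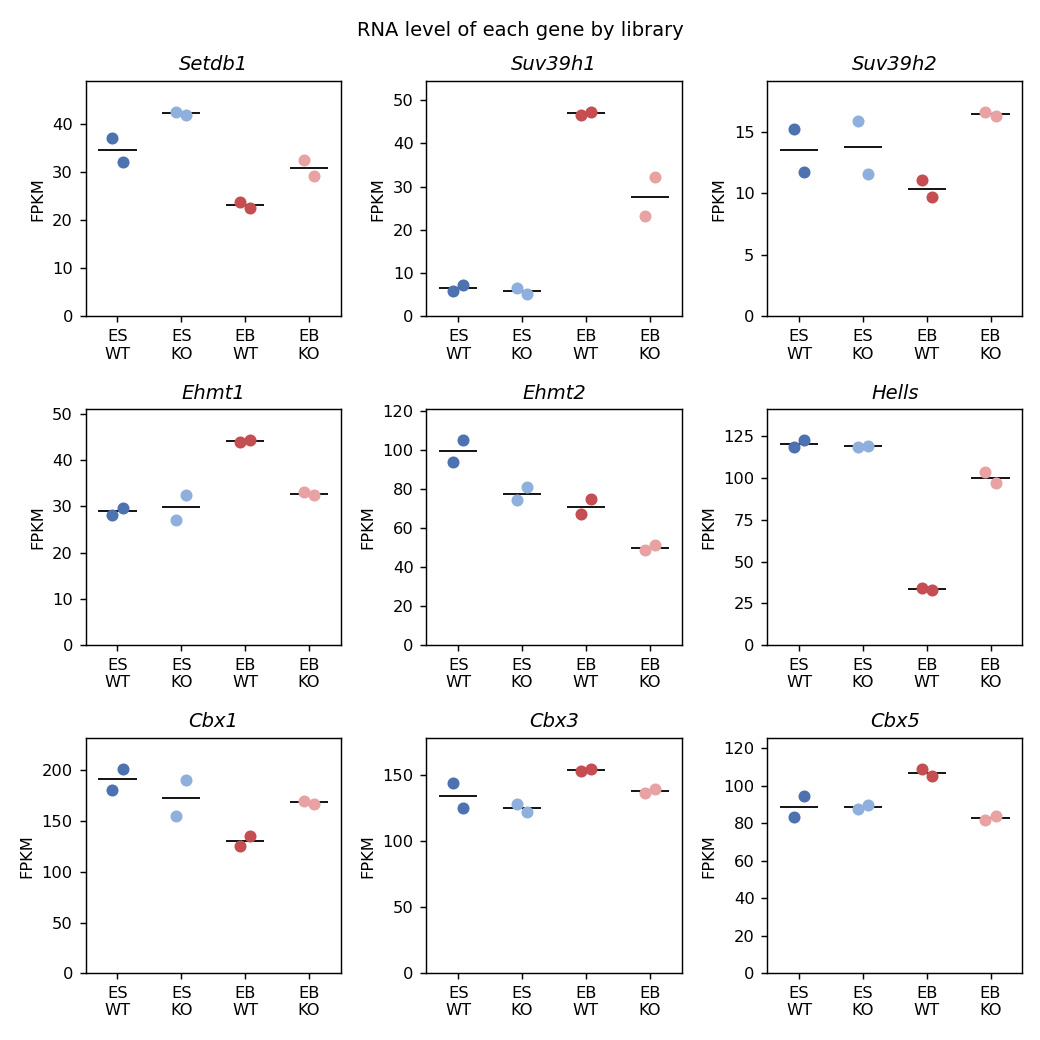
RNA level (FPKM, linear axis from 0) of each of the 9 members, 1 panel per gene, in the 8 libraries by group; points are libraries and horizontal lines are group means of 2. Hells lies at 33.0 and 34.1 FPKM in wild-type EBs and at 96.9 FPKM or more in the other groups, and Suv39h1 lies below 8 FPKM in all ES libraries and at 23.1 FPKM or more in all EB libraries.

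In knockout against wild-type EBs, 8 of the 9 members changed: Setdb1, Suv39h2, Cbx1 and Hells rose, and Suv39h1, Ehmt1, Ehmt2 and Cbx5 fell (limma, adjusted p under 0.05). Cbx3 did not pass the test. Across all genes tested, 45.9% were called, 20.0% higher and 25.9% lower. Libraries of the groups did not overlap for any of the 9 members, nor for 77.0% of all genes. The median difference of the members was -0.16 on the log2 scale, against -0.064 over all genes. In these bulk samples fewer cells of a type and less RNA per cell cannot be told apart. All log2 differences are on the log2(FPKM + 1) scale, which understates the change of low genes.

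In the knockout against the wild type in ES cells, 0 of 9 members were called, against 0.499% of all genes. By limma's unadjusted p under 0.05, Setdb1 and Ehmt2 would pass. Groups did not overlap for these 2 members, against 44.1% of all genes. Members' differences had a median of -0.017, against 0.022 over all genes.

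From wild-type ES cells to wild-type EBs, Suv39h1, Ehmt1 and Cbx5 rose and Setdb1, Ehmt2, Cbx1 and Hells fell, 7 of 9 members, against 60.9% of all genes (36.1% higher, 24.8% lower). This comparison and that of knockout with wild-type EBs share the wild-type EB libraries, so their values are given side by side for each member and not as separate evidence. From knockout ES cells to knockout EBs, Suv39h1 rose and Setdb1 and Ehmt2 fell, 3 of 9 members, against 29.1% of all genes. Groups did not overlap for 9 members in the wild type and 7 in the knockout, against 81.3% and 67.1% of all genes.

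**Figure D2:**
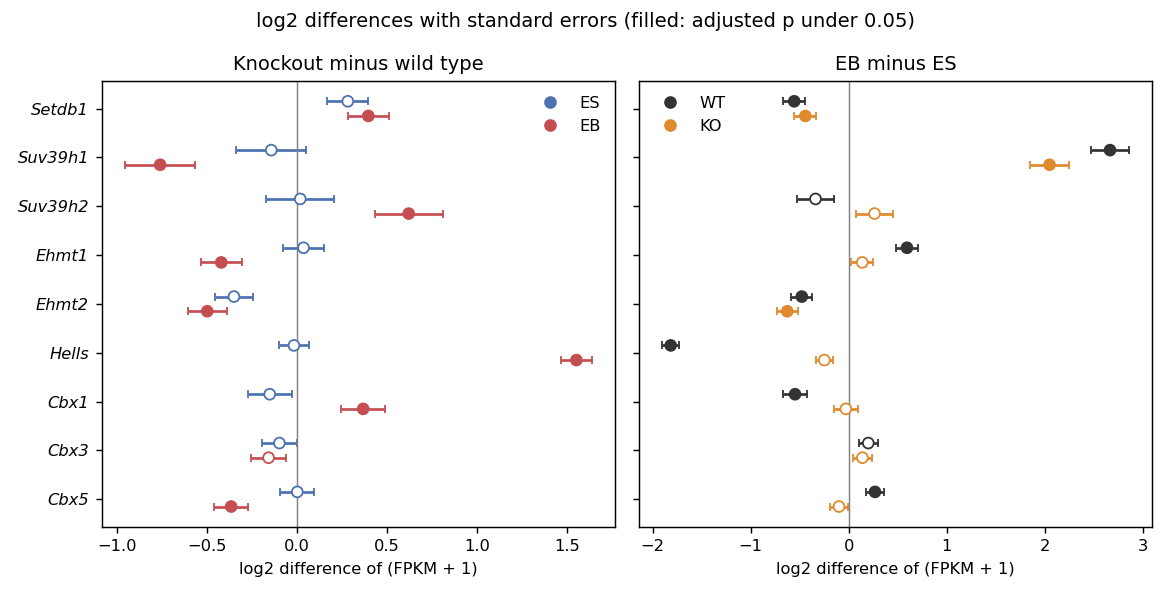
Difference of log2(FPKM + 1) for each member, knockout (KO) minus wild type (WT) on the left and EB minus ES on the right; bars are standard errors and filled points passed the limma test at an adjusted p under 0.05. Hells lies at 1.55 for EBs on the left and at -1.82 for the wild type on the right, and no ES point on the left is filled.

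Hells showed the largest difference in EBs. Its level was 118 and 123 FPKM in wild-type ES cells, 119 and 119 in knockout ES cells, 34.1 and 33.0 in wild-type EBs, and 103 and 96.9 in knockout EBs. The wild-type EB libraries were thus the only low ones, and no library of the other groups came near them. Relative to the mean of wild-type ES cells, the level was 27.8% ± 0.650 (SD, n = 2) in wild-type EBs and 83.1% ± 3.81 in knockout EBs. Hells fell by 1.82 ± 0.085 (SE) on the log2 scale from wild-type ES cells to EBs (adjusted p = 2.65e-05) and was higher by 1.55 ± 0.085 in knockout than in wild-type EBs (adjusted p = 0.000167), a ratio of mean FPKM of 2.99. From knockout ES cells to knockout EBs the difference was -0.25 (adjusted p = 0.0668), which was called lower with a common FPKM total (-0.35, adjusted p = 0.0204), and between knockout and wild-type ES cells -0.017 (adjusted p = 0.979). The effect of the knockout in EBs exceeded that in ES cells by 1.57 ± 0.12 on the log2 scale (adjusted p = 0.00184). Hells was the only member for which that test passed, against 31.3% of all genes. No alternative setting ended the Hells call in knockout EBs or the call of this difference.

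Cell cycle genes moved with Hells. In knockout EBs 27 of 33 measured cell cycle genes tested rose and 0 fell, with a median log2 difference of 0.56. Across all genes tested in that comparison, 20.0% were called higher and 25.9% lower, with a median of -0.064. The same shares apply to the marker lists below. The summed level of the cell cycle genes was 3148 to 3165 FPKM in wild-type ES cells, 1649 to 1671 in wild-type EBs and 2462 to 2613 in knockout EBs. All 8 pluripotency markers also rose in knockout EBs, with a median of 3.43. Cardiomyocyte markers fell in 8 of 8 cases, blood and endothelial markers in 7 of 8, fibroblast and feeder markers in 7 of 8 with 1 higher, neural progenitor markers in 5 of 5, and visceral endoderm markers in 3 of 7 with 2 higher. Summed levels of the blood and endothelial list were 599 to 2361 FPKM in wild-type EBs and 71.0 to 89.5 in knockout EBs. The fibroblast list summed to 722 to 908 FPKM in wild-type EBs and 38.2 to 71.2 in knockout EBs. Neural markers summed to 79.7 to 89.6 FPKM in wild-type EBs and 8.17 to 17.3 in knockout EBs. Visceral endoderm markers summed to 175 to 249.7 FPKM in wild-type EBs and 49.8 to 117 in knockout EBs. No marker was at 0 in both libraries of a group. The part of cell type composition and of the share of cycling cells in the members' EB differences was not tested.

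Suv39h1, one of the paired trimethylating enzymes, had the largest rise during differentiation. Its level was 5.92 and 7.26 FPKM in wild-type ES cells, 6.63 and 5.15 in knockout ES cells, 46.6 and 47.3 in wild-type EBs, and 23.1 and 32.3 in knockout EBs. All EB libraries lay above all ES libraries, and the knockout EBs lay between the ES cells and the wild-type EBs. Suv39h1 rose 7.13-fold in mean FPKM in the wild type (log2 difference 2.67 ± 0.19, adjusted p = 6.02e-05) and 4.70-fold in the knockout (2.05 ± 0.19, adjusted p = 0.00139). It was lower by 0.76 on the log2 scale in knockout than in wild-type EBs (-0.76 ± 0.19, adjusted p = 0.0173). The difference of the knockout effects between EBs and ES cells was -0.62 (adjusted p = 0.130) and did not pass. In ES cells the difference was -0.14 (adjusted p = 0.839).

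A second gene model, RP23-27I6.2, covers 13449 bases of the Suv39h1 locus, 99.0% of it, and the table gives no strand. Its level was 16.5 and 18.3 FPKM in wild-type ES cells, 11.6 and 18.1 in knockout ES cells, 0.273 and 5.59 in wild-type EBs, and 5.86 and 5.22 in knockout EBs. It was thus above Suv39h1 in every ES library and below it in every EB library, and how the reads were divided between the models is uncertain. With the FPKM of both models added, an approximation because their transcript lengths may differ, the rise in the wild type was 1.03 ± 0.17 on the log2 scale (adjusted p = 0.00173) and in the knockout 0.66 (adjusted p = 0.0291). The summed level in knockout EBs was lower than in wild-type EBs by 0.58 (-0.58 ± 0.17, adjusted p = 0.0293). Direction and call were the same with the sum in these 3 comparisons, and the size of the rise was not.

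Suv39h2, the paralog of Suv39h1, moved the other way in knockout EBs. It stood at 15.2 and 11.8 FPKM in wild-type ES cells, 15.9 and 11.5 in knockout ES cells, 11.1 and 9.73 in wild-type EBs, and 16.6 and 16.3 in knockout EBs. The knockout EBs were the highest libraries, above both wild-type EB libraries. Suv39h2 rose by 0.62 ± 0.19 in knockout against wild-type EBs (adjusted p = 0.0328). In ES cells its difference was 0.018 (adjusted p = 0.994), and from ES cells to EBs it was -0.34 in the wild type (adjusted p = 0.160) and 0.26 in the knockout (adjusted p = 0.328). The Suv39h1 share of the pair's summed FPKM was 28.0% and 38.2% in wild-type ES cells, 29.4% and 30.8% in knockout ES cells, 80.8% and 83.0% in wild-type EBs, and 58.2% and 66.4% in knockout EBs. Suv39h2 was thus the more abundant transcript in every ES library and Suv39h1 in every EB library. With the overlapping model added to Suv39h1, the ES shares were 53.4% to 68.5%, the wild-type EB shares 80.9% and 84.5%, and the knockout EB shares 63.5% and 69.7%. The minority place of Suv39h1 in ES cells therefore depends on how that locus was counted. Suv39h2 also overlaps Dclre1c over 8316 bases, which reached at most 6.35 FPKM.

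**Figure D3:**
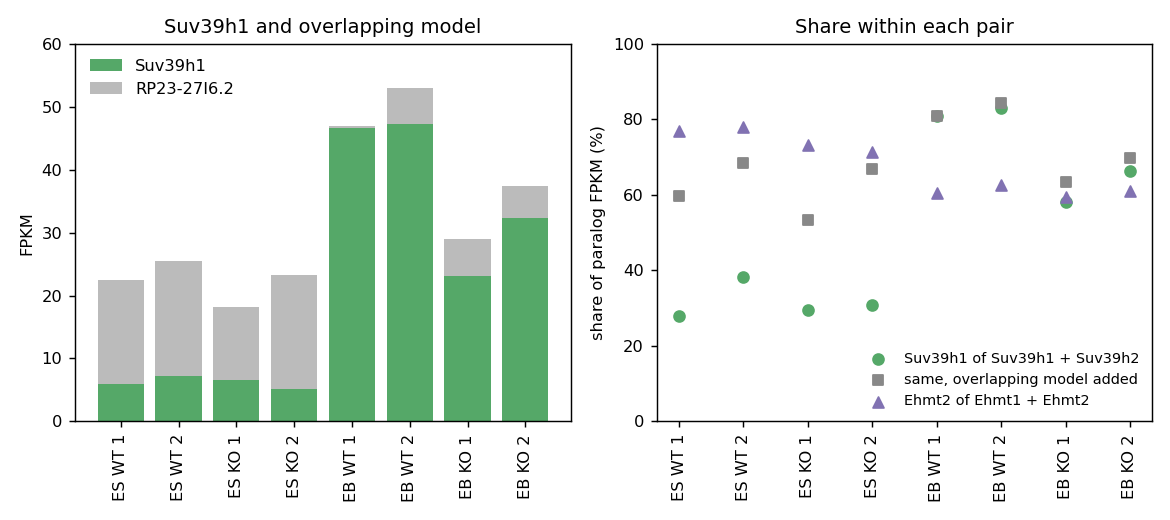
Left, stacked FPKM of Suv39h1 and of the overlapping model RP23-27I6.2 in each library; right, percent of Suv39h1 in its sum with Suv39h2 (circles), the same with the model added (squares), and percent of Ehmt2 in its sum with Ehmt1 (triangles). Without the model, Suv39h1 makes up 28.0% to 38.2% in ES libraries and 58.2% to 83.0% in EB libraries.

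The G9a-GLP genes Ehmt2 and Ehmt1 were both lower in knockout than in wild-type EBs. Ehmt1 stood at 28.2 and 29.6 FPKM in wild-type ES cells, 27.1 and 32.4 in knockout ES cells, 43.9 and 44.3 in wild-type EBs, and 33.0 and 32.4 in knockout EBs. The wild-type EBs were the highest, and the knockout EBs lay near the top of the ES range. Ehmt1 rose by 0.59 ± 0.11 from wild-type ES cells to EBs (adjusted p = 0.00311), and its difference was 0.14 in the knockout (adjusted p = 0.391). In knockout against wild-type EBs it fell (-0.42 ± 0.11, adjusted p = 0.0204).

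Ehmt2, which encodes the catalytic partner G9a, had its lowest values in knockout EBs. Its level was 93.4 and 104.8 FPKM in wild-type ES cells, 74.0 and 81.0 in knockout ES cells, 67.0 and 74.6 in wild-type EBs, and 48.5 and 51.1 in knockout EBs. Knockout libraries lay below wild-type libraries in both cell states. Its difference was -0.35 ± 0.11 in ES cells (adjusted p = 0.216), which did not pass, and -0.50 ± 0.11 in EBs (adjusted p = 0.00905), which did. The 2 effects did not differ by the test (-0.15, adjusted p = 0.492). From ES cells to EBs Ehmt2 fell in the wild type (-0.48 ± 0.11, adjusted p = 0.00680) and in the knockout (-0.63, adjusted p = 0.00736). The summed FPKM of the 2 genes was 122 and 134 in wild-type ES cells, 101 and 113 in knockout ES cells, 111 and 119 in wild-type EBs, and 81.5 and 83.5 in knockout EBs, the lowest. Ehmt2 made up 71.4% to 78.0% of that sum in ES libraries and 59.5% to 62.7% in EB libraries.

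Setdb1 was the methyltransferase gene that rose in knockout EBs besides Suv39h2. It stood at 37.1 and 32.1 FPKM in wild-type ES cells, 42.5 and 41.9 in knockout ES cells, 23.8 and 22.5 in wild-type EBs, and 32.5 and 29.2 in knockout EBs. Knockout libraries lay above wild-type libraries in both cell states. Setdb1 rose by 0.40 ± 0.11 in EBs (adjusted p = 0.0262), and in ES cells the difference was 0.28 (adjusted p = 0.341), not called. It fell from ES cells to EBs in the wild type (-0.56 ± 0.11, adjusted p = 0.00436) and in the knockout (-0.44, adjusted p = 0.0273). Setdb1 overlaps Cers2 over 75 bases.

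As deposited, the HP1 genes differed in their shares more than in their sum. The sum depends on the scaling, and the shares within a library do not. With a common FPKM total, Cbx3 (-0.36) and Cbx5 (-0.57) were called lower in knockout than in wild-type EBs. Cbx1 (0.16) was not called there. The summed FPKM of Cbx1, Cbx3 and Cbx5 was 407 and 421 in wild-type ES cells, 371 and 402 in knockout ES cells, 387 and 395 in wild-type EBs, and 387 and 390.1 in knockout EBs. Cbx1 made up 44.3% and 47.8% of it in wild-type ES cells, 41.7% and 47.3% in knockout ES cells, 32.3% and 34.3% in wild-type EBs, and 43.7% and 42.8% in knockout EBs. Cbx5 made up 20.5% to 23.7% in ES libraries, 28.2% and 26.6% in wild-type EBs, and 21.1% and 21.6% in knockout EBs. In both shares the wild-type EBs stood alone and the knockout EBs lay within the ES range. Cbx3 made up 29.7% to 35.2% in ES libraries, 39.5% and 39.1% in wild-type EBs, and 35.2% and 35.6% in knockout EBs.

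**Figure D4:**
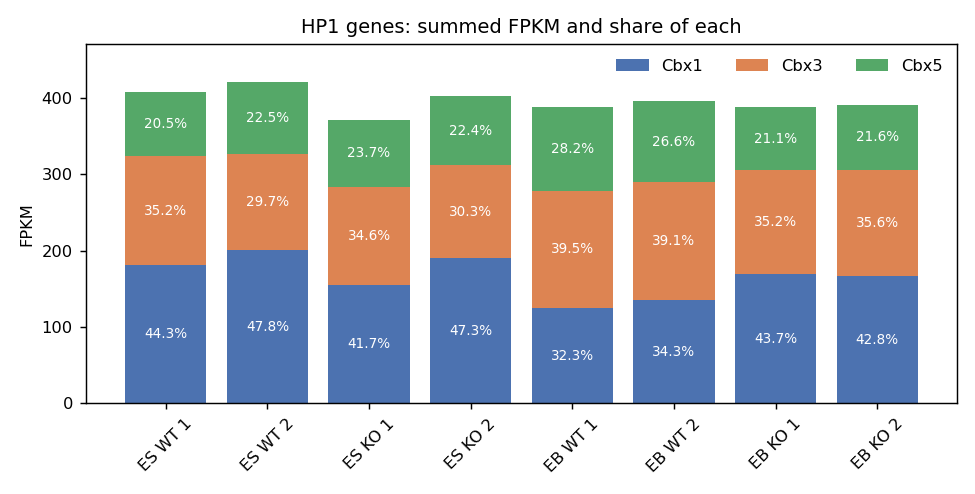
Stacked FPKM of Cbx1, Cbx3 and Cbx5 in each library, with the percent of each in their sum written in the bars. The sums lie between 371 and 421 FPKM, and the Cbx1 share is 32.3% and 34.3% in wild-type EBs and 41.7% or more in the other groups.

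Cbx1, HP1 beta, stood at 180.5 and 201.2 FPKM in wild-type ES cells, 154.8 and 189.9 in knockout ES cells, 124.9 and 135.4 in wild-type EBs, and 169.1 and 166.9 in knockout EBs. Wild-type EBs were the lowest libraries. Cbx1 fell by 0.55 on the log2 scale from wild-type ES cells to EBs (-0.55 ± 0.12, adjusted p = 0.00657) and rose by 0.37 ± 0.12 in knockout against wild-type EBs (adjusted p = 0.0445). In the knockout the difference from ES cells to EBs was -0.029 (adjusted p = 0.880).

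Cbx5, HP1 alpha, had levels of 83.3 and 94.6 FPKM in wild-type ES cells, 87.9 and 89.9 in knockout ES cells, 109 and 105 in wild-type EBs, and 81.6 and 84.2 in knockout EBs. Wild-type EBs were above all other libraries. Cbx5 rose by 0.27 ± 0.095 from wild-type ES cells to EBs (adjusted p = 0.0431) and fell in knockout against wild-type EBs (-0.37 ± 0.095, adjusted p = 0.0182). Its difference was 0.0014 in ES cells (adjusted p = 1). From knockout ES cells to EBs it was -0.099 (adjusted p = 0.464).

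Cbx3, HP1 gamma, was the member with the smallest EB difference. It stood at 143 and 125 FPKM in wild-type ES cells, 128 and 122 in knockout ES cells, 153 and 154 in wild-type EBs, and 136 and 139 in knockout EBs. Its differences were -0.16 ± 0.097 in knockout against wild-type EBs (adjusted p = 0.226) and 0.20 from wild-type ES cells to EBs (adjusted p = 0.115). Pseudogenes Cbx3-ps6 and Cbx3-ps7 had group means of 9.33 to 11.8 FPKM and may share reads with it.

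Of the 8 calls in knockout EBs, that of Hells held without each library, and the other 7 were lost on leaving out at least 1 library. Without 1 of the 4 EB libraries in turn, the adjusted p was 0.0750 to 0.149 for Suv39h2, 0.0757 to 0.0916 for Ehmt1, 0.0550 to 0.0938 for Cbx5 and 0.0857 to 0.173 for Cbx1, each past the threshold whichever library was left out. Cbx1 also lost its call without either wild-type ES library (0.0587 and 0.0585). Setdb1 lost its call without knockout EB replicate 1 (0.141) and without wild-type EB replicate 1 (0.0755) or 2 (0.126). The same libraries ended the Suv39h1 call (0.0993, 0.0712 and 0.0800). Ehmt2 lost its call without knockout EB replicate 1 (0.0584) or wild-type EB replicate 2 (0.0605). In these fits the lone sample of a group is assumed to vary like the other groups. None of these 7 differences changed sign.

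Further calls depended on single libraries. The rise of Cbx5 from wild-type ES cells to EBs was lost on leaving out any library but wild-type ES replicate 2 (adjusted p from 0.0593 to 0.231). The fall of Setdb1 from knockout ES cells to knockout EBs was lost without any 1 of the 4 knockout libraries (adjusted p from 0.0534 to 0.129). Calls of Suv39h1, Ehmt1, Ehmt2, Setdb1, Cbx1 and Hells from wild-type ES cells to EBs held without each library.

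Scaling mattered for the small EB differences. Scaling the libraries to a common FPKM total shifted the median of all genes in knockout against wild-type EBs from -0.064 to -0.24, and quantile normalization shifted it to 0.030. The share of higher calls among all calls was 43.6% as deposited, 30.4% with a common total and 50.7% after quantile normalization. With the common total, Setdb1 (0.19, adjusted p = 0.153), Suv39h2 (0.43, 0.0863) and Cbx1 (0.16, 0.365) were no longer called and Cbx3 was called lower (-0.36, 0.0167). Cbx1 also lost its call after quantile normalization (0.26, 0.175). Relative to the median of all genes, over the 3 scalings, the difference was 0.43 to 0.48 for Setdb1, 0.66 to 0.81 for Suv39h2, 0.23 to 0.43 for Cbx1 and 1.57 to 1.61 for Hells. On the same relative scale it was -0.81 to -0.70 for Suv39h1, -0.46 to -0.36 for Ehmt1, -0.55 to -0.43 for Ehmt2, -0.47 to -0.30 for Cbx5 and -0.26 to -0.094 for Cbx3. From wild-type ES cells to EBs, the all-gene median was 0.12 as deposited and -0.11 after quantile normalization, with 59.3% and 46.3% of calls higher. There Cbx1 lost its call (-0.34, 0.0747), while Suv39h2 (-0.70, 0.0116) and Cbx3 (0.41, 0.00559) gained one. For the change in the knockout from ES cells to EBs the share of higher calls was 58.8% as deposited, 49.2% after quantile normalization and 47.7% with a common total, and for the difference of the knockout effects it was 40.5%, 51.7% and 26.9%.

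Of 42 other measured genes that act on or through H3K9 methylation, 40 were tested. In knockout against wild-type EBs 17 rose and 6 fell, with a median of 0.24, where 20.0% of all genes were called higher and 25.9% lower. From wild-type ES cells to EBs 7 rose and 21 fell, with a median of -0.44, where 36.1% of all genes were higher and 24.8% lower. From knockout ES cells to EBs 1 rose and 5 fell, with 29.1% of all genes called in either direction. In ES cells 0 were called in the knockout, against 0.499% of all genes. Their summed level was 2511 to 2601 FPKM in wild-type ES cells, 1329 to 1371 in wild-type EBs and 1804 to 1823 in knockout EBs. The list was put together with earlier results of these data known.

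Genes that recruit or serve SETDB1 moved mostly upward in knockout EBs: 7 of 9 rose (Trim28, Atf7ip2, Zfp57, Zfp809, Smarcad1, Morc3 and Daxx) and 0 fell. Across all genes tested, 20.0% were called higher there and 25.9% lower. Zfp57, a KRAB zinc finger protein that guards imprinted regions, stood at 198 and 188 FPKM in wild-type ES cells, 165 and 131 in knockout ES cells, 16.3 and 18.4 in wild-type EBs, and 77.0 and 63.6 in knockout EBs. Knockout EBs were above wild-type EBs and below all ES libraries. Zfp57 rose by 1.95 ± 0.15 in knockout EBs (adjusted p = 0.000323). Zfp809, which recognises retroviral DNA, stood at 5.91 and 6.72 FPKM in wild-type EBs and 18.3 and 18.0 in the knockout (1.39 ± 0.11, adjusted p = 0.000380), and at 20.5 to 26.0 in ES libraries. Morc3, a GHKL ATPase, stood at 13.4 and 13.6 FPKM in wild-type EBs and 33.1 and 28.8 in knockout EBs (1.13 ± 0.11, adjusted p = 0.000632), where it was back in the ES range of 26.9 to 32.9 or just above it. In the HUSH group, which silences retroelements with SETDB1, 2 of 4 rose (Mphosph8 and Fam208a) and 0 fell. The share called was near the 45.9% of all genes called in either direction.

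Partners of G9a-GLP split in knockout EBs: Wiz and Zfp644, zinc finger subunits of that complex, fell and Cdyl rose, of 3 tested. Of all genes, 25.9% were called lower there and 20.0% higher. Wiz stood at 39.4 and 48.5 FPKM in wild-type EBs and 18.5 and 21.0 in knockout EBs (-1.11 ± 0.13, adjusted p = 0.00116). Zfp644 stood at 27.7 and 26.6 FPKM in wild-type EBs and 15.7 and 17.6 in knockout EBs (-0.67 ± 0.13, adjusted p = 0.00551). Both thus lay in knockout EBs below or near their ES levels, which were 21.4 to 26.4 FPKM for Wiz and 13.5 to 17.8 FPKM for Zfp644. Ehmt1, Ehmt2, Wiz and Zfp644 were each lower in knockout EBs, but they did not share 1 pattern. From wild-type ES cells to EBs Ehmt2 fell (-0.48), while Ehmt1 (0.59), Wiz (0.72) and Zfp644 (0.64) rose.

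Of 10 H3K9 demethylases and related genes, 3 rose (Kdm3a, Jmjd1c and Kdm4c) and 2 fell (Kdm4a and Phf2) in knockout EBs, a share near the 45.9% of all genes called there. Kdm4c, which removes the trimethyl mark, stood at 8.44 and 8.56 FPKM in wild-type EBs and 36.7 and 30.4 in knockout EBs (1.86 ± 0.20, adjusted p = 0.000828), above its ES range of 18.4 to 28.0. Phf2 stood at 12.1 and 14.3 FPKM in wild-type EBs and 3.07 and 4.27 in knockout EBs (-1.61 ± 0.20, adjusted p = 0.00124), with 1.19 to 1.77 in ES libraries. Among 10 HP1 partners and readers, 4 rose (Lbr, Uhrf1, Cdca7 and Zfp462) and 1 fell (Adnp), again a share near that of all genes. CDCA7 works with HELLS in the remodelling complex. Of 4 other methyltransferase genes, Mecom fell and none rose, where 25.9% of all genes were called lower and 20.0% higher. Mecom stood at 16.7 and 11.9 FPKM in wild-type EBs and 0.440 and 3.70 in knockout EBs (-2.54 ± 0.50, adjusted p = 0.00644).

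The 3 genes with the pattern most like each member, by Pearson's r of log2(FPKM + 1) over the 8 libraries and leaving out pseudogenes, mitochondrial genes and models with clone names only, are given as a description; the 8 libraries fall into 4 groups and share the group differences. For Hells they were Pml, Gart and Tcea3, each with r = 0.998, and for Suv39h1 Cxcr4 (0.997), Mum1l1 (0.996) and Msantd4 (0.996). Ehmt1 was closest to Fgfr2 (0.997), Tom1l2 (0.992) and Ddx26b (0.989), and Ehmt2 to Gli2 (0.994), Fkbp8 (0.982) and Hist1h2ae (0.977). Among the 3 closest to Setdb1 were Rhov (0.993) and Ercc4 (0.987), and among those closest to Suv39h2 were Dhx15 (0.971) and Fam98a (0.967). For the HP1 genes they were Nup188 (0.981), Mei4 (0.980) and Platr21 (0.978) for Cbx1, Tmem51 (0.985), Lcorl (0.980) and Socs7 (0.976) for Cbx3, and Pkd1 (0.986), Usp20 (0.980) and Kcnk2 (0.979) for Cbx5. Some of these genes were near the floor. Rhov ran from 0.171 to 3.13 FPKM over the libraries, Mei4 from 0.0987 to 1.40 and Kcnk2 from 0.0749 to 2.50.

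H3K4me3 marks active start sites and H3K27me3 marks genes held silent by Polycomb. Each mark had 1 library per group, so the values below have no replicate check and no test, and the authors' signal is compared as deposited. The window behind the signal is not given in the sources used here. In 17759 genes longer loci had higher values (across genes, Spearman's rho was 0.43 to 0.49 for H3K4me3 and 0.59 to 0.69 for H3K27me3). Values are therefore compared between groups within a gene, and all-gene medians are given only for scale, on the log2(signal + 0.1) scale.

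All 9 members had H3K4me3 signal in every group, from 10.6 to 49.4, against all-gene medians of 8.94 to 11.0. Cbx5 had 48.3 in wild-type ES cells, 36.1 in knockout ES cells, 16.0 in wild-type EBs and 26.9 in knockout EBs. The wild-type EB library was the lowest and the knockout EB library lay between it and the ES libraries. The log2 ratio from wild-type ES cells to EBs was -1.59, and Cbx5 was the only member past 2-fold in that comparison, against 20.1% of all genes (10.9% lower). In knockout against wild-type EBs its ratio was 0.74 (0 of 9 members past 2-fold, background 11.8%), from knockout ES cells to EBs -0.42 (0 of 9, background 3.29%), and in knockout against wild-type ES cells -0.42 (0 of 9, background 1.06%).

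The H3K4me3 and RNA values of Cbx5 went in opposite directions from wild-type ES cells to EBs. Its RNA rose by only 0.27 ± 0.095 on the log2 scale (limma adjusted p = 0.0431). That call was lost with only the 4 libraries compared, and on leaving out any library but wild-type ES replicate 2. From wild-type ES cells to EBs, 4833 genes with an H3K4me3 row were called higher in RNA. Of these, 94 (1.94%) had H3K4me3 lower by 2-fold or more, and 27 (0.559%) had a ratio at or below that of Cbx5. The median H3K4me3 ratio of those 4833 genes was 0.60. This combination was chosen after its values were seen. RefSeq lists 2 start sites for Cbx5. Hnrnpa1, which starts back to back with Cbx5, had H3K4me3 of 29.1, 31.8, 20.6 and 23.2 in wild-type ES cells, knockout ES cells, wild-type EBs and knockout EBs, a log2 ratio of -0.50 from wild-type ES cells to EBs.

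**Figure D5:**
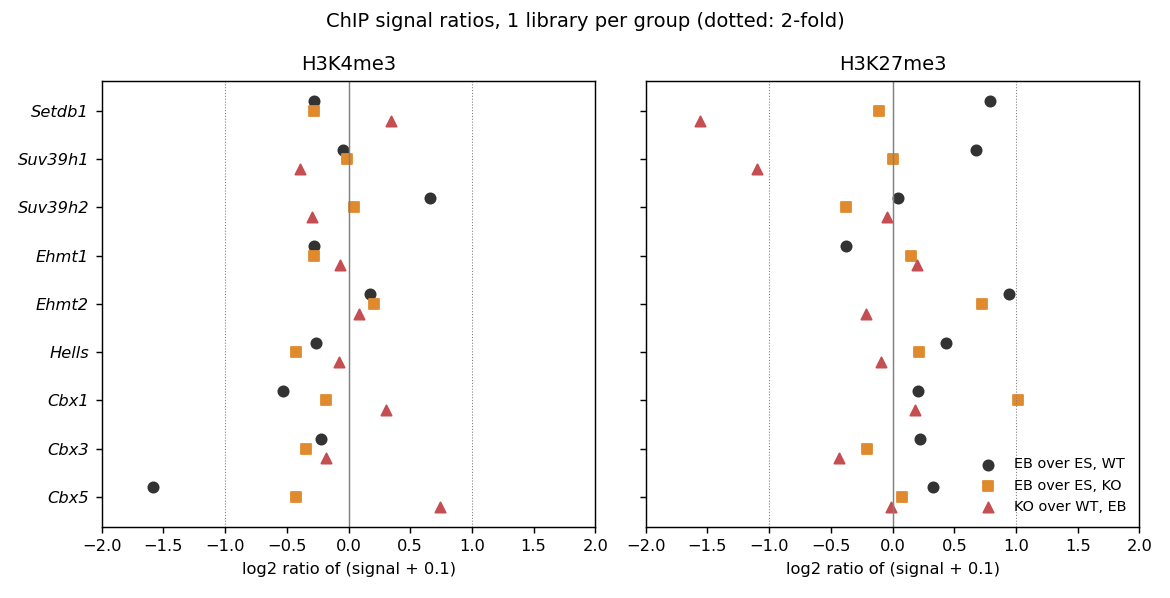
Log2 ratio of (signal + 0.1) for H3K4me3 (left) and H3K27me3 (right) at the 9 members, for EB over ES in the wild type (WT) and in the knockout (KO) and for KO over WT in EBs; 1 library per group, dotted lines at 2-fold. Cbx5 lies at -1.59 for H3K4me3 in the wild type, and Setdb1 lies at -1.56 for H3K27me3 in KO over WT EBs.

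The members with large RNA differences had small H3K4me3 differences. Hells had 29.0 in wild-type ES cells, 30.8 in knockout ES cells, 24.2 in wild-type EBs and 22.9 in knockout EBs, with similar values in the 2 EB groups, where its RNA differed 2.99-fold. Suv39h1 had 14.5, 10.7, 14.0 and 10.6 in the same order, lower in both knockout libraries. Cbx1 had 49.4, 48.1, 34.2 and 42.3, lowest in wild-type EBs as was its RNA. Suv39h2 had 14.1, 17.6, 22.3 and 18.1, and Setdb1 had 22.5, 28.6, 18.5 and 23.6, higher in the knockout in both cell states. Ehmt1 had 41.8, 39.8, 34.4 and 32.8, Ehmt2 had 36.8, 38.1, 41.4 and 43.9, and Cbx3 had 19.4, 18.6, 16.6 and 14.6.

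H3K27me3 signal was 0.133 to 1.40 for 7 members, against all-gene medians of 1.56 to 1.79, and reached 2.80 at Setdb1 and 4.56 at Ehmt1. Setdb1 had 1.57 in wild-type ES cells, 0.960 in knockout ES cells, 2.80 in wild-type EBs and 0.880 in knockout EBs, a log2 ratio of -1.56 in knockout against wild-type EBs. A lower ratio was found in 2.54% of all genes. Suv39h1 had 0.213, 0.133, 0.400 and 0.133 in the same order, and its ratio of -1.10 rests on few steps, a step being the smallest increment of a library's values: 10 in the wild-type EB library, where a step is larger, and 5 in the knockout EB library. With a pseudocount of 1 its ratio was -0.30. These were the 2 members past 2-fold, both lower, against 12.5% of all genes (6.72% lower). From wild-type ES cells to EBs 0 members passed 2-fold, against 20.8% of all genes, and Ehmt2 came nearest (0.94, from 0.640 to 1.32). Cbx1 passed it from knockout ES cells to EBs (1.01, from 0.293 to 0.694, background 9.16%), and 0 members did so in knockout against wild-type ES cells (background 3.58%).

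By position, on the mm10 loci of the RNA table, the members lie on 8 chromosomes: Setdb1 (ENSMUSG00000015697.14) at chr3:95323525-95357202, Suv39h1 (ENSMUSG00000039231.18) at chrX:8061171-8074760, Suv39h2 (ENSMUSG00000026646.16) at chr2:3455815-3475031 and Ehmt1 (ENSMUSG00000036893.17) at chr2:24789928-24919614. Ehmt2 (ENSMUSG00000013787.15) lies at chr17:34898469-34914052, Cbx1 (ENSMUSG00000018666.13) at chr11:96789127-96808640, Cbx3 (ENSMUSG00000029836.15) at chr6:51470360-51483704, Cbx5 (ENSMUSG00000009575.14) at chr15:103191544-103239816 and Hells (ENSMUSG00000025001.11) at chr19:38930915-38971051.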

How the data were processed

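RNA-seq libraries (8) and ChIP-seq libraries (8) were used; groups came from the labels. The authors deposited FPKM per gene and library; per the submitters' processing notes, the build is mm10 and the tools named, without their roles, are Cufflinks 2.2.1, STAR 2.6.0a, HTSeq, Bowtie2 and DESeq2. For ChIP the authors deposited 1 signal value per gene and library, which the file names call promoter RPKM; the window is not given in the sources used here. Of repeated symbols, the entry with the highest mean was kept (120 left out). Read depth is unknown, since the FPKM table holds no counts.

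Genes reaching 1 FPKM in 2 or more libraries were fitted with limma 3.58.1 (R 4.3.3) on log2(FPKM + 1), all 8 libraries in 1 model with 4 group means, and p-values were adjusted by Benjamini-Hochberg over 15428 genes, two-sided, with a threshold of 0.05. The fit was tested on simulated data. Named genes were the 9 members, up to 4 other H3K9 genes per direction by smallest adjusted p in knockout EBs, the 3 genes most like each member (2 of these genes are not reported here), and Chaf1a. Gene RP23-27I6.2, Cbx3 pseudogenes and Hnrnp neighbours were added for their position. Members, lists and tests were chosen with earlier results of these data known. Promoter windows and sequences are from RefSeq (GRCm38.p6). Alternatives were another pseudocount, no filter, quantile or common-total scaling, only the 4 libraries compared, a replicate block and each library left out. The sum of Suv39h1 with its overlapping model was chosen after seeing the data.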

Additional observations from a re-analysis of the deposited data

Results flagged for a closer look

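The effect of the knockout on Hells differed between EBs and ES cells, by 1.57 ± 0.12 (SE) on the log2 scale (limma interaction, adjusted p = 0.00184). Hells was higher in both knockout EB libraries than in both wild-type EB libraries, whereas the ES groups overlapped.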

How the results depend on the processing

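No called difference changed sign under any setting run, whereas some uncalled ones did, such as Setdb1 for the difference of the knockout effects (0.11, and -0.097 with a common FPKM total). In knockout against wild-type EBs, the number of members called higher (4) was 2 without the filter on low values and 1 with a common FPKM total, and 1 to 4 with each library left out in turn; the number called lower (4) was 0 to 4 with each library left out. For the difference of the knockout effects, 2 members were higher instead of 1 after quantile normalization, 2 lower instead of 0 with a common FPKM total, and with each library left out 1 to 2 were higher and 0 to 1 lower. From knockout ES cells to EBs the number lower (2) was 1 with only the 4 libraries compared, 3 with a common FPKM total (Hells added) and 1 to 2 with each library left out. Members past 2-fold in H3K27me3 numbered 1 instead of 2 in knockout against wild-type EBs with a pseudocount of 1. From wild-type ES cells to EBs 1 instead of 0 passed after division by the library median, and from knockout ES cells to EBs 0 instead of 1 with a pseudocount of 1 or after division by the library median or total. Where fewer samples entered, the fit had fewer degrees of freedom; otherwise the cause was not tested.

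The labels do not say that replicate numbers pair the samples, and deviations of same-numbered libraries correlated by 0.0678 to 0.311 over the 6 pairs of groups. With the replicate block, 2 members instead of 1 were called higher for the difference of the knockout effects, Cbx1 being added (adjusted p = 0.0344). The block changed no other member call. With 2 libraries per group and 1 ChIP library per group, small differences could not be resolved, and read depth is unknown.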

Other observations

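Hnrnpa1 and Hnrnpa2b1, the RNA-binding protein genes that start back to back with Cbx5 and Cbx3, were among the more abundant transcripts. Hnrnpa1 stood at 749.9 and 636 FPKM in wild-type ES cells, 809 and 689 in knockout ES cells, 1071 and 855 in wild-type EBs, and 1061 and 996 in knockout EBs. Knockout and wild-type EB libraries overlapped, with a log2 difference of 0.10 (limma adjusted p = 0.622), where Cbx5 was lower by -0.37 (adjusted p = 0.0182). Hnrnpa1 rose by 0.47 ± 0.16 (SE) from wild-type ES cells to EBs (adjusted p = 0.0336). Hnrnpa2b1 stood at 686 and 626 FPKM in wild-type ES cells, 708 and 649.6 in knockout ES cells, 818 and 737 in wild-type EBs, and 805 and 762 in knockout EBs, and its EB difference was 0.012 (adjusted p = 0.941). Its H3K4me3 signal was 26.2, 31.3, 13.2 and 16.0 in wild-type ES, knockout ES, wild-type EB and knockout EB cells. Both neighbours thus had less H3K4me3 in the EB libraries than in the ES libraries. These genes were chosen for their position after the members' values were seen, and the differences between each member and its neighbour were not tested.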
